A study of Mus musculus with 10 samples.

Results

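Guidance cues are secreted or membrane-bound proteins that steer growing axons, migrating cells and vascular sprouts by attraction or repulsion. The genes described here are the semaphorins and their plexin receptors, the ephrins and the Eph receptor tyrosine kinases, the Slit ligands and Robo receptors, and the netrins with their Unc5 and Dcc receptors. They were taken from the protein-coding expression table by a rule on their symbols, which used no value and left out Efnb2 and Ephb4. The rule was chosen with earlier results of these data known. This gave 63 of 21729 genes. They were 20 semaphorins, 9 plexins, 7 ephrins, 13 Eph receptors, 3 Slits, 3 Robos, 3 netrins, 4 Unc5 receptors and Dcc.

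RNA had been sequenced from mouse digit tip blastemas, the mass of proliferating cells that forms at the stump of an amputated digit and rebuilds its tip. The mutants carried ΔLARM1/2, a deletion of limb enhancers of Lmx1b, which encodes the homeodomain factor of dorsal limb pattern. The 4 groups were ΔLARM1/2 mutants at 12 days post amputation (dpa, 3 libraries, age 33 days), wild type mice at 12 dpa (2 libraries, age 33 days), ΔLARM1/2 mutants at 14 dpa (3 libraries, age 35 days) and wild type mice at 14 dpa (2 libraries, age 35 days). All groups shared a mixed CD1 and C57Bl/6 background, and each library pooled 6 amputated central hindlimb digits, so single digits cannot be told apart. By its title, the study is about regeneration of the digit tip failing when Lmx1b is absent.

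Semaphorins are ligands with a shared extracellular domain that act through plexins, and most of the secreted class needs neuropilins as co-receptors. Ephrins and Eph receptors both sit in membranes and signal on contact, which keeps cell populations apart at boundaries. Slits bind Robo receptors, and netrins bind Dcc or Unc5 receptors. Outside the nervous system the same proteins shape blood vessels, mesenchyme and epidermis. The blastema contains cells of all these kinds and is invaded by regrowing nerves and vessels.

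Lmx1b, the targeted gene, was lower in mutants without overlap. At 12 dpa the mutants had 0.0788, 0.336 and 0.168 CPM (counts scaled to library size), against 2.68 and 2.94 CPM in wild type blastemas. At 14 dpa the mutants had 0.234, 0.0696 and 0.0278 CPM, against 2.14 and 1.69 CPM in wild type blastemas. The log2 fold change of Lmx1b across days was -3.98, with an SE of 0.49 and an adjusted p of 0.000406. Total expected counts were 75924098 to 101632364 in mutant libraries and 69998104 to 85838038 in wild type libraries. Sex was inferred from Y-linked counts, with at least 500 taken as male, and by that cutoff each group held 1 female library. A pair of 14 dpa libraries stand apart. The genotype tag of mutant 14 dpa replicate 1 says wild type, against its title, its description and the 0.234 CPM of Lmx1b above, and was kept as mutant. Wild type 14 dpa replicate 1 had the lowest share of counts in protein-coding genes, 81.5% where the other 9 libraries had 87.7% to 93.6%, and it held 12561 Y-linked and 1292 Xist counts. It was taken as male, though the other libraries taken as male had at most 46 Xist counts.

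The tissue was checked against cell type markers, because these receptors and ligands belong to particular cells. The 10 markers of fibroblasts and blastema mesenchyme, such as Msx1, Prrx1 and Lrrc15, were detected in all groups, and Col1a1 alone held 42.7% of their summed level. Their levels summed to 844.7 to 1288 TPM (transcript units scaled by gene length) in mutants at 12 dpa, against 3217 to 4997 TPM in wild type, and to 292.1 to 1207 TPM in mutants at 14 dpa, against 2244 to 2340 TPM in wild type. The 10 keratinocyte markers ran the other way, at 28220 to 39520 TPM in mutants against 13730 to 18530 TPM in wild type at 12 dpa, and at 27220 to 46350 TPM in mutants against 14360 to 14700 TPM in wild type at 14 dpa. Endothelial markers, 12 in number, summed to 19.4 to 33.48 TPM in mutants and 58.38 to 79.06 TPM in wild type at 12 dpa, and to 13.37 to 24.75 TPM in mutants and 55.11 to 68.05 TPM in wild type at 14 dpa. All 12 endothelial, 8 of 10 fibroblast and 6 of 7 pericyte markers fell, and 7 of 10 keratinocyte markers rose. Of 9 neuronal markers, Elavl4 was listed at 0 in all libraries and Tubb3 held 99.0% of the summed level. All 9 tested nail matrix markers fell, as did 4 of 6 osteoblast and 4 of 5 lymphatic markers, while 4 of 5 neutrophil and all 5 melanocyte markers rose. Of tested markers, 3 of 4 for chondrocytes and 1 of 4 for monocytes and macrophages fell. Among 7 Schwann cell markers 1 rose and 1 fell, and among 6 tested neuronal markers 3 rose and 1 fell. Of 4 tested osteoclast and 5 T cell markers, 0 passed. The threshold was an adjusted p of 0.05 over both days, where 21.5% of all tested genes rose and 22.2% fell. The part of these cell types in the results was not tested. In bulk tissue, fewer cells of a type and less RNA per cell cannot be told apart.

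Guidance genes spanned a wide range of levels in the blastema. Of the 63 members, 34 reached 1 TPM in every library, 18 stayed below 1 TPM in every library, 11 lay between and 19 averaged 10 TPM or more. The highest mean levels over the 10 libraries belonged to Efna3 (68.4 TPM, range 33.6 to 105), Ephb6 (67.5 TPM, 22.3 to 112), Epha1 (54.8 TPM, 22.3 to 98.3) and Plxnb2 (45.8 TPM, 24 to 68.1). Their ranges overlapped, but Efna3 was above Epha1 and Plxnb2 in every library. The order of Efna3 and Ephb6 differed between libraries. Efna1 (32.8 TPM), Efnb1 (25.2 TPM), Sema4b (22.3 TPM) and Plxna1 (21.6 TPM) came next. Ephrin and Eph genes, plexins and a class 4 semaphorin thus made up the upper end by this mean, which holds more mutant than wild type libraries. In wild type alone Unc5b averaged 21.6 TPM, above Plxna1 (20.5 TPM) and Sema4b (14.8 TPM). Dcc, a netrin receptor of commissural axons, was listed at 0 TPM in every library.

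**Figure D1:**
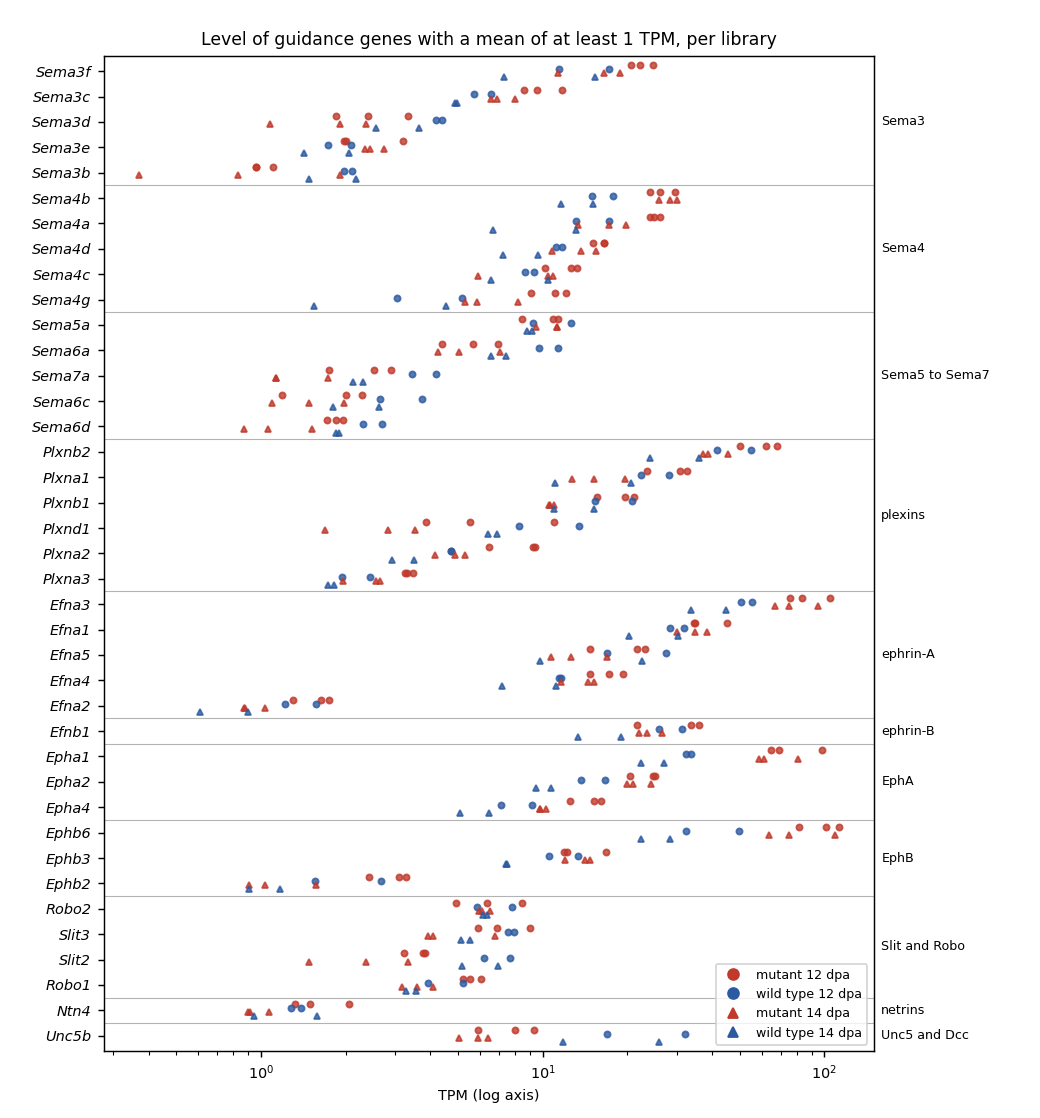
Level in TPM (log axis) of the 39 guidance genes with a mean of at least 1 TPM, 1 point per library, mutants in red and wild type in blue, circles at 12 dpa and triangles at 14 dpa. Efna3, Ephb6 and Epha1 lie at the high end with mutant points to the right of wild type points, and Unc5b has its mutant points to the left.

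The mutants were set against wild type over both days together, to find the guidance genes whose level differs in a blastema lacking these enhancers. The genes that rose were Epha1, Epha2, Epha4, Ephb6, Efna3, Efna4, Sema4a, Sema4b, Sema4d, Sema4g, Plxna2 and, at a lower level, Slit1. The rises reached a log2 fold change of 1.09 in Ephb6 (SE 0.13). Lower in mutants were 4 class 3 semaphorins, Sema4f, 6 semaphorins of classes 5 to 7, Plxnb1, Plxnd1, Epha3, Epha5, Slit2, Robo2, Ntn4, Ntn5, Unc5b and Unc5c. The netrin receptor Unc5b, at -1.96 (SE 0.18), had the smallest p of all members. Of 58 members with enough counts to test, 12 rose, 21 fell and 25 did not pass the threshold, an adjusted p of 0.05. That is 56.9% of those tested, where 43.7% of all 20216 tested genes were called (21.5% higher and 22.2% lower). The share called was below that of all genes in plexins (33.3%), ephrins (28.6%) and EphB receptors (25%). In the other families it ran from 50% (Unc5 and Dcc) to 85.7% (semaphorins of classes 5 to 7), and each family holds few genes. The median log2 fold change was -0.22 over the 58 members and 0.02 over all genes. A change of at least 2-fold was called for 16 members, and the background for this was 18.3% of all genes.

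The genotypes did not overlap on either day in 28 of the 58, 10 higher and 18 lower in mutants, against 37.2% of all genes. On the TPM scale the split differed. There, by limma on log2(TPM + 1) with low values filtered, 17 members rose and 11 fell of 43 tested, the median of all genes stood at 0.34, and 83.2% of all calls were higher, against 49.2% in the count test. The calls of Robo2, Ntn4 and Plxnb1 were lost on that scale. Without the filter Sema3b, Sema3g, Sema6b and Sema6c did not pass by limma either, with adjusted p-values of 0.0687, 0.145, 0.255 and 0.0768. No called member changed sign in any alternative. The calls of 23 of the 33 held in each of the 20 alternatives that tested them, the conflicting tag apart. The other 10 were Efna4, Ntn4, Plxnb1, Plxnd1, Robo2, Sema3b, Sema3g, Sema4d, Sema6b and Sema6c. Placing the tagged library in wild type left 0 members past the threshold, with 21 at an unadjusted p under 0.05. Without both libraries that stand apart, an alternative chosen after seeing the data, 11 members rose and 20 fell.

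**Figure D2:**
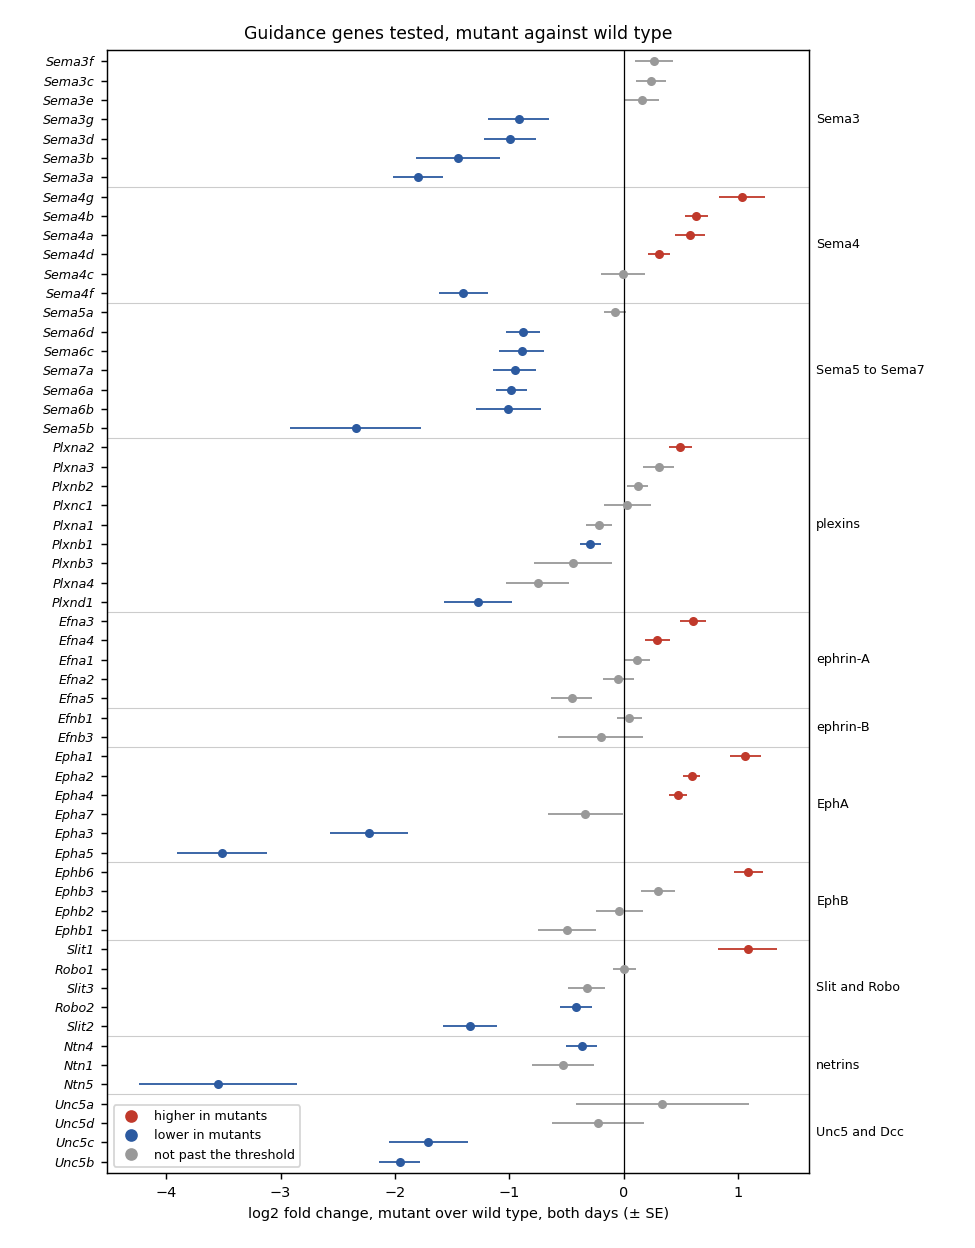
Log2 fold change of mutant over wild type over both days for the 58 guidance genes tested, with bars of 1 SE, grouped by family; red is higher and blue lower past an adjusted p of 0.05, and grey did not pass. Class 4 semaphorins and EphA receptors hold most of the red points, and the class 3 and class 5 to 7 semaphorins hold none.

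Class 3 semaphorins are secreted repellents, most of which bind neuropilins and signal through class A plexins. Of 7 members, 0 rose and 4 fell (Sema3a, Sema3b, Sema3d and Sema3g). Sema3a (ENSMUSG00000028883), the classic repellent of sensory and motor axons, stood at 0.901, 1.14 and 1.68 CPM in mutants and 3.73 and 5.87 CPM in wild type at 12 dpa, and at 1.51, 1.79 and 2.12 CPM in mutants and 6.36 and 5.01 CPM in wild type at 14 dpa. Every mutant library was below every wild type library. The means were 1.52 ± 0.446 CPM in mutants (SD, n = 6) and 5.24 ± 1.15 CPM in wild type (SD, n = 4), a log2 fold change of -1.80 (SE 0.22, adjusted p = 0.000364). Sema3b was at 2.4, 2.22 and 1.86 CPM in mutants against 5.4 and 6.15 CPM in wild type at 12 dpa, and at 0.742, 3.91 and 1.92 CPM in mutants against 7.44 and 4.82 CPM in wild type at 14 dpa, again without overlap. Its log2 fold change was -1.45 (SE 0.37, adjusted p = 0.0123). Sema3d and Sema3g changed by -0.996 (adjusted p = 0.00749) and -0.92 (adjusted p = 0.0201) on the log2 scale. Sema3g did not pass when replicate 2 of either wild type group was left out, with an adjusted p of up to 0.0654.

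Sema3f held the highest level of the class, a mean of 16.5 TPM, and is a ligand of neuropilin-2. It had 55.5, 53.1 and 58.9 CPM in mutants and 36.7 and 56.1 CPM in wild type at 12 dpa, and 61.1, 39.2 and 57.5 CPM in mutants and 37.2 and 50.5 CPM in wild type at 14 dpa. The groups overlapped on both days, with a log2 fold change of 0.26 (SE 0.16, adjusted p = 0.214). Sema3c, which acts in cardiovascular development, and Sema3e, the direct ligand of Plxnd1, also did not pass, at 0.24 (adjusted p = 0.165) and 0.16 (adjusted p = 0.404). These 3 averaged 16.5, 7.35 and 2.2 TPM, and the 4 genes that fell averaged 2.77 TPM (Sema3d) or less.

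Class 4 semaphorins are transmembrane ligands, known in immune cells, epithelia and vessels. In this class 4 of 6 rose and Sema4f fell. Sema4g showed the largest rise, with 36.7, 43.4 and 38.3 CPM in mutants and 14.2 and 22.6 CPM in wild type at 12 dpa, and 37.6, 28.1 and 28.5 CPM in mutants and 11.3 and 21 CPM in wild type at 14 dpa. No mutant library reached down to a wild type one. Its means were 35.4 ± 6 CPM in mutants (SD, n = 6) and 17.3 ± 5.42 CPM in wild type (SD, n = 4), with a log2 fold change of 1.03 (SE 0.20, adjusted p = 0.00367). Sema4b, the most abundant of the class by TPM, had 100.4, 111 and 92.6 CPM in mutants and 88.8 and 65.1 CPM in wild type at 12 dpa, and 148, 133 and 149 CPM in mutants and 78.9 and 77.9 CPM in wild type at 14 dpa. The distance between genotypes was 0.40 at 12 dpa (adjusted p = 0.0851) and 0.87 at 14 dpa (adjusted p = 0.00361), and the 2 days were not shown to differ. Over both days Sema4b changed by 0.63 (SE 0.10, adjusted p = 0.00136).

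Sema4a and Sema4d, the ligand of Plxnb1, rose by 0.58 (adjusted p = 0.00657) and 0.31 (adjusted p = 0.0274) on the log2 scale. Sema4d did not pass when any of 5 libraries was left out (both wild type 14 dpa libraries, replicate 2 of wild type 12 dpa, replicate 1 of mutant 12 dpa, replicate 3 of mutant 14 dpa), with an adjusted p of up to 0.109. Sema4f, at a lower level, had 1.55, 2.26 and 3.22 CPM in mutants against 5 and 3.97 CPM in wild type at 12 dpa, and 1.08, 1.35 and 1.08 CPM in mutants against 3.73 and 4.87 CPM in wild type at 14 dpa. The mutant libraries were below the wild type libraries on each day, with a log2 fold change of -1.40 (SE 0.21, adjusted p = 0.00105). Sema4c was level between genotypes, at 37.9 ± 8.78 CPM in mutants (SD, n = 6) and 38.1 ± 5.12 CPM in wild type (SD, n = 4; log2 -0.01, SE 0.19).

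Semaphorins of classes 5 to 7 are anchored in the membrane, and Sema6a and Sema6d bind class A plexins directly. Of 7 genes, 0 rose and 6 fell, all but Sema5a. Sema6a fell by 0.98 on the log2 scale (adjusted p = 0.000627), with 23.2, 26.6 and 31.3 CPM in mutants and 64.6 and 65.2 CPM in wild type at 12 dpa, and 43.4, 29.6 and 28.1 CPM in mutants and 57.9 and 51.8 CPM in wild type at 14 dpa. Sema7a, a lipid-anchored semaphorin that binds Plxnc1 and integrins, had 7.53, 4.55 and 7.6 CPM in mutants and 12.8 and 14.1 CPM in wild type at 12 dpa, and 3.78, 6.56 and 5.03 CPM in mutants and 10.2 and 8.52 CPM in wild type at 14 dpa. Both genes were without overlap on either day. The log2 fold change of Sema7a was -0.95 (SE 0.19, adjusted p = 0.00349).

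Sema6d changed by -0.88 (adjusted p = 0.00152), Sema6c by -0.89 (adjusted p = 0.00585) and Sema6b by -1.01 (adjusted p = 0.0178) on the log2 scale. The Sema6b groups overlapped at 12 dpa, where mutant replicate 3 had 3.79 CPM, and Sema6b did not pass when replicate 2 of wild type 12 dpa was left out (adjusted p = 0.0764). Sema5b was the lowest of the class, with 0.124, 0.0905 and 0.0895 CPM in mutants against 0.3 and 0.49 CPM in wild type at 12 dpa and 0.0391, 0.139 and 0 CPM in mutants against 0.408 and 0.454 CPM in wild type at 14 dpa. Its log2 fold change of -2.34 (SE 0.57, adjusted p = 0.00918) thus rests on few counts. Sema5a, which carries thrombospondin repeats, was the most abundant by TPM and did not pass. It had 92.8, 113 and 102 CPM in mutants and 109 and 141 CPM in wild type at 12 dpa, and 127, 141 and 142 CPM in mutants and 129.8 and 120.1 CPM in wild type at 14 dpa, a log2 fold change of -0.08 (SE 0.10, adjusted p = 0.552) that turned to 0.069 on the TPM scale and to 0.0245 when replicate 2 of wild type 12 dpa was left out.

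Plexins are the semaphorin receptors, with an intracellular domain that acts on small GTPases. Of 9 plexins, 1 rose, 2 fell and 6 did not pass. Plxnd1, the endothelial receptor of Sema3e, had 27.1, 31.7 and 66.4 CPM in mutants and 68.2 and 102 CPM in wild type at 12 dpa, and 14.7, 30.8 and 23.5 CPM in mutants and 71.6 and 59.7 CPM in wild type at 14 dpa. Mutant 12 dpa replicate 3, at 66.4 CPM, came close to the lower wild type library of that day, at 68.2 CPM. The log2 fold change of Plxnd1 was -1.27 (SE 0.29, adjusted p = 0.00905), and -1.08 with an adjusted p of 0.0634 without both 14 dpa libraries that stand apart. Per 100 TPM of the endothelial marker list, Plxnd1 stood at 12.6 to 32.8 TPM in mutants and 10.1 to 17.0 TPM in wild type, higher in mutants on each day. It thus fell less than the summed endothelial markers did, and their part in the result was not tested.

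Plxnb2, the most abundant plexin, did not pass. It had 326, 377 and 370.5 CPM in mutants and 333 and 365 CPM in wild type at 12 dpa, and 356, 309 and 318 CPM in mutants and 264 and 305 CPM in wild type at 14 dpa (log2 fold change 0.12, SE 0.09, adjusted p = 0.317). Plxna2, a receptor for class 6 semaphorins and, with neuropilins, class 3 semaphorins, rose with a log2 fold change of 0.49 (SE 0.10, adjusted p = 0.00395). Plxnb1, the Sema4d receptor, changed by -0.29 (SE 0.09, adjusted p = 0.0285). Plxnb1 did not pass without replicate 2 of either wild type group or without mutant 14 dpa replicate 2 or 3, with an adjusted p of up to 0.13, nor by limma on log2(TPM + 1), at -0.0944 (adjusted p = 0.578). Plxna1, Plxna3, Plxnb3 and Plxnc1 did not pass, nor did Plxna4 at -0.75 (adjusted p = 0.0511).

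Ephrins are the membrane-bound ligands of Eph receptors, lipid-anchored in the A class and transmembrane in the B class. Of 7 ephrins, 2 rose and 0 fell. Efna3, the ephrin with the highest mean TPM, had 168, 212 and 159.9 CPM in mutants and 136 and 127 CPM in wild type at 12 dpa, and 248, 183 and 211 CPM in mutants and 125 and 127 CPM in wild type at 14 dpa. All 6 mutant libraries exceeded all 4 wild type libraries. The means were 197 ± 33.1 CPM in mutants (SD, n = 6) and 129 ± 5.1 CPM in wild type (SD, n = 4), with a log2 fold change of 0.61 (SE 0.12, adjusted p = 0.00289). Efna3 made up 52.2% to 60.2% of the summed ephrin-A TPM in mutants and 41.0% to 47.0% in wild type. Its exons share 344 bases with those of a gene on the opposite strand, and since the sources used here do not give the strand setting of the counting, some reads may belong to that gene.

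Efna4 rose by 0.29 (SE 0.11, adjusted p = 0.0488), a call that was lost without any single library other than mutant 14 dpa replicate 2, with an adjusted p of up to 0.164, and with DESeq2's size factors, another count filter or sex as a covariate, and that rests on a gene overlapping another on the opposite strand. Efna5, which patterns topographic maps of axons, was not called at -0.46 (SE 0.18, adjusted p = 0.069). Efna1, a ligand known in vessels and epithelia, had 54.9 ± 9.5 CPM in mutants (SD, n = 6) and 50.5 ± 2.84 CPM in wild type (SD, n = 4), and Efna2 had 2.79 ± 0.414 CPM in mutants and 2.91 ± 0.663 CPM in wild type, and neither passed. Efnb1, the ephrin of craniofacial and limb boundaries, had 75.8, 113 and 98.6 CPM in mutants and 109.7 and 116 CPM in wild type at 12 dpa, and 108, 100.3 and 95.9 CPM in mutants and 77.5 and 83.8 CPM in wild type at 14 dpa. The groups overlapped at 12 dpa and lay apart at 14 dpa, with the mutants higher. Over both days its log2 fold change was 0.05 (SE 0.11, adjusted p = 0.745) and turned to -0.0246 without mutant 12 dpa replicate 2.

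Eph receptors are tyrosine kinases whose forward signal usually repels, and EphA1 and EphA2 are known from epidermis. Among 9 EphA genes 6 could be tested, of which 3 rose and 2 fell. Epha1 (ENSMUSG00000029859) had 225, 306 and 201 CPM in mutants and 134 and 123 CPM in wild type at 12 dpa, and 326, 258 and 255 CPM in mutants and 127 and 116 CPM in wild type at 14 dpa. Every mutant library was above every wild type library. The means were 262 ± 47.4 CPM in mutants (SD, n = 6) and 125 ± 7.49 CPM in wild type (SD, n = 4), with a log2 fold change of 1.06 (SE 0.14, adjusted p = 0.000481). Epha1 shares 236 exonic bases with Zyx on the opposite strand, and the limit given for Efna3 applies. Epha2 had 86.5, 92.8 and 88 CPM in mutants and 69.5 and 73.8 CPM in wild type at 12 dpa, and 117, 103 and 111 CPM in mutants and 63.9 and 56.1 CPM in wild type at 14 dpa, also without overlap, and rose by 0.59 (SE 0.08, adjusted p = 0.000441). Epha4, which acts in limb motor axons and in hair follicles, rose by 0.48 (SE 0.08, adjusted p = 0.00166).

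Summed over the EphA receptors, the level was 90.0 to 139.8 TPM in mutants and 38.7 to 62.2 TPM in wild type, and Epha1 held 62.7% to 70.3% of it in mutants and 54.2% to 58.8% in wild type. Keratinocyte markers were also higher in mutants. Per 100 TPM of that list, Epha1 stood at 0.174 to 0.249 TPM in mutants and 0.155 to 0.246 TPM in wild type, and the groups overlapped on both days. On this scale Epha2, Epha4, Efna3, Sema4a and Sema4g overlapped too. The part of keratinocyte content in these rises was not tested.

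Epha3 and Epha5 went the other way. Epha3, a receptor of mesenchymal cells and retinal axons, had 1.87, 2.69 and 1.6 CPM in mutants and 12 and 12.7 CPM in wild type at 12 dpa, and 0.99, 3.98 and 2.87 CPM in mutants and 11.8 and 7.34 CPM in wild type at 14 dpa. The highest mutant library was below the lowest wild type library, with a log2 fold change of -2.23 (SE 0.34, adjusted p = 0.00131). Epha5 had 0.158, 0.246 and 0.28 CPM in mutants and 1.35 and 2.14 CPM in wild type at 12 dpa, and 0.0391, 0.278 and 0.153 CPM in mutants and 2.93 and 2.61 CPM in wild type at 14 dpa. Its log2 fold change of -3.51 (SE 0.40, adjusted p = 0.000261) was among the largest falls of the tested members, at a level of at most 0.41 TPM. Per 100 TPM of the fibroblast list, Epha3 overlapped between genotypes, while Epha5 was lower in mutants on both days per TPM of the fibroblast, keratinocyte and endothelial lists alike. On the fibroblast scale the 12 dpa groups nearly touched, and the rounding of such low TPM values could reverse their order. Epha7, a receptor of limb and neural boundaries, did not pass at -0.34 (adjusted p = 0.436), and Epha6, Epha8 and Epha10 had at most 22 counts in all libraries of a genotype together.

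Among EphB receptors Ephb6 rose and the other 3 did not pass. Ephb6 (ENSMUSG00000029869), whose kinase domain is inactive, had 181, 225 and 184 CPM in mutants and 107 and 111 CPM in wild type at 12 dpa, and 288, 196 and 235 CPM in mutants and 103 and 87.4 CPM in wild type at 14 dpa. The genotypes were well apart on each day. The means were 218 ± 40.7 CPM in mutants (SD, n = 6) and 102 ± 10.4 CPM in wild type (SD, n = 4), with a log2 fold change of 1.09 (SE 0.13, adjusted p = 0.000298). It made up 82.3% to 87.3% of the summed EphB TPM in mutants and 68.2% to 78.8% in wild type, a sum over Ephb1, Ephb2, Ephb3 and Ephb6, since Ephb4 is outside the rule. Per 100 TPM of keratinocyte markers Ephb6 overlapped between genotypes at 12 dpa and was higher in mutants at 14 dpa. Ephb3 reached the threshold at 14 dpa alone (0.67, SE 0.21, adjusted p = 0.035), and over both days stood at 0.30 (adjusted p = 0.126). Ephb2 and Ephb1 did not pass.

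Slits are secreted repellents of axons that bind Robo receptors. The 2 called ligands moved in opposite directions. Slit2 (ENSMUSG00000031558), also known in limb mesenchyme, had 19.1, 20.2 and 20.9 CPM in mutants and 42.3 and 50.7 CPM in wild type at 12 dpa, and 8.82, 25.8 and 17.8 CPM in mutants and 50.2 and 46.9 CPM in wild type at 14 dpa. No mutant library came near the wild type level. The means were 18.7 ± 5.57 CPM in mutants (SD, n = 6) and 47.5 ± 3.89 CPM in wild type (SD, n = 4), with a log2 fold change of -1.34 (SE 0.24, adjusted p = 0.00267). Slit1, at a lower level, had 9.32, 9.21 and 4.65 CPM in mutants and 2.94 and 3.1 CPM in wild type at 12 dpa, and 5.23, 5.91 and 2.89 CPM in mutants and 2.9 and 2.42 CPM in wild type at 14 dpa. The 14 dpa groups overlapped, since mutant replicate 3 had 2.89 CPM. Over both days Slit1 changed by 1.08 (SE 0.26, adjusted p = 0.00839). Slit3, the third ligand, was not called at -0.32 (SE 0.16, adjusted p = 0.134), and Slit2 took 23.2% to 35.3% of the summed TPM of the 3 Slits in mutants, against 43.7% to 55.8% in wild type.

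Of the receptors, Robo2 had 18.9, 28.7 and 18.4 CPM in mutants and 26.8 and 33.1 CPM in wild type at 12 dpa, and 27.6, 26.9 and 26.2 CPM in mutants and 39.5 and 31.1 CPM in wild type at 14 dpa. The groups overlapped at 12 dpa. Robo2 fell with a log2 fold change of -0.42 (SE 0.14, adjusted p = 0.0348). It did not pass when any of 7 libraries was left out (the 3 of mutant 14 dpa, replicates 1 and 3 of mutant 12 dpa, replicate 2 of wild type 12 dpa, replicate 1 of wild type 14 dpa), with an adjusted p of up to 0.139. By limma on log2(TPM + 1) the value for Robo2 was -0.0395 (adjusted p = 0.822), where the median of all genes was 0.34. Robo1 was level between genotypes, at 36.2 ± 4.24 CPM in mutants (SD, n = 6) and 35.9 ± 4.6 CPM in wild type (SD, n = 4), and Robo3 had 3 counts in all mutant and 21 in all wild type libraries and was not tested.

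Netrins are laminin-related ligands, and Unc5 receptors turn the netrin response to repulsion. Both called netrins and both called Unc5 genes fell. Unc5b (ENSMUSG00000020099), the vascular member of the receptors, had 36.9, 45.2 and 47.1 CPM in mutants and 129 and 212 CPM in wild type at 12 dpa, and 39.8, 48.2 and 38.8 CPM in mutants and 122 and 202 CPM in wild type at 14 dpa. The highest mutant library, at 48.2 CPM, was far below the lowest wild type library, at 122 CPM. The means were 42.7 ± 4.74 CPM in mutants (SD, n = 6) and 166 ± 47.1 CPM in wild type (SD, n = 4), with a log2 fold change of -1.96 (SE 0.18, adjusted p = 0.000117). Unc5b accounted for 94.9% to 98.2% of the summed Unc5 and Dcc TPM in mutants and 96.5% to 98.9% in wild type. Per 100 TPM of endothelial markers Unc5b was at 24.5 to 44.3 TPM in mutants and 21.5 to 40.4 TPM in wild type, which overlapped on both days, and the part of endothelial content in its fall was not tested.

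Unc5c had 1.07, 1.02 and 1.35 CPM in mutants and 3.02 and 4.38 CPM in wild type at 12 dpa, and 0.378, 1.53 and 0.999 CPM in mutants and 4.23 and 2.27 CPM in wild type at 14 dpa, a log2 fold change of -1.71 (SE 0.35, adjusted p = 0.00392) without overlap. Its exons share 118 bases with a gene on the opposite strand. Unc5d and Unc5a did not pass over both days. Dcc was not tested, with 2 counts in all mutant and 2 in all wild type libraries.

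Ntn4, a basement membrane netrin and the most abundant of the 3 by TPM, had 5.24, 5.3 and 6.58 CPM in mutants and 6.66 and 5.39 CPM in wild type at 12 dpa, and 4.96, 4.42 and 4.18 CPM in mutants and 6.3 and 7.96 CPM in wild type at 14 dpa. The groups overlapped at 12 dpa. The log2 fold change of -0.37 (SE 0.13, adjusted p = 0.047) did not pass when any of 7 libraries was left out (both of wild type 12 dpa, replicates 1 and 2 of mutant 12 dpa, replicate 2 of wild type 14 dpa, replicates 2 and 3 of mutant 14 dpa), with an adjusted p of up to 0.171. Ntn4 also did not pass with sex as a covariate (adjusted p = 0.0814), without a filter on counts (adjusted p = 0.0738) or by limma on log2(TPM + 1), where its value was -0.0189 (adjusted p = 0.906). Ntn1, the attractant of commissural axons, was not called at -0.53 (SE 0.27, adjusted p = 0.14). Ntn5 was close to absent from mutants, at 0, 0.0646 and 0.0559 CPM against 0.572 and 0.68 CPM in wild type at 12 dpa, and 0, 0.119 and 0.0555 CPM in mutants against 0.686 and 0.433 CPM in wild type at 14 dpa. Its fitted log2 fold change was -3.55 (SE 0.69, adjusted p = 0.00328), and its exons share 519 bases with Sec1 on the opposite strand.

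**Figure D3:**
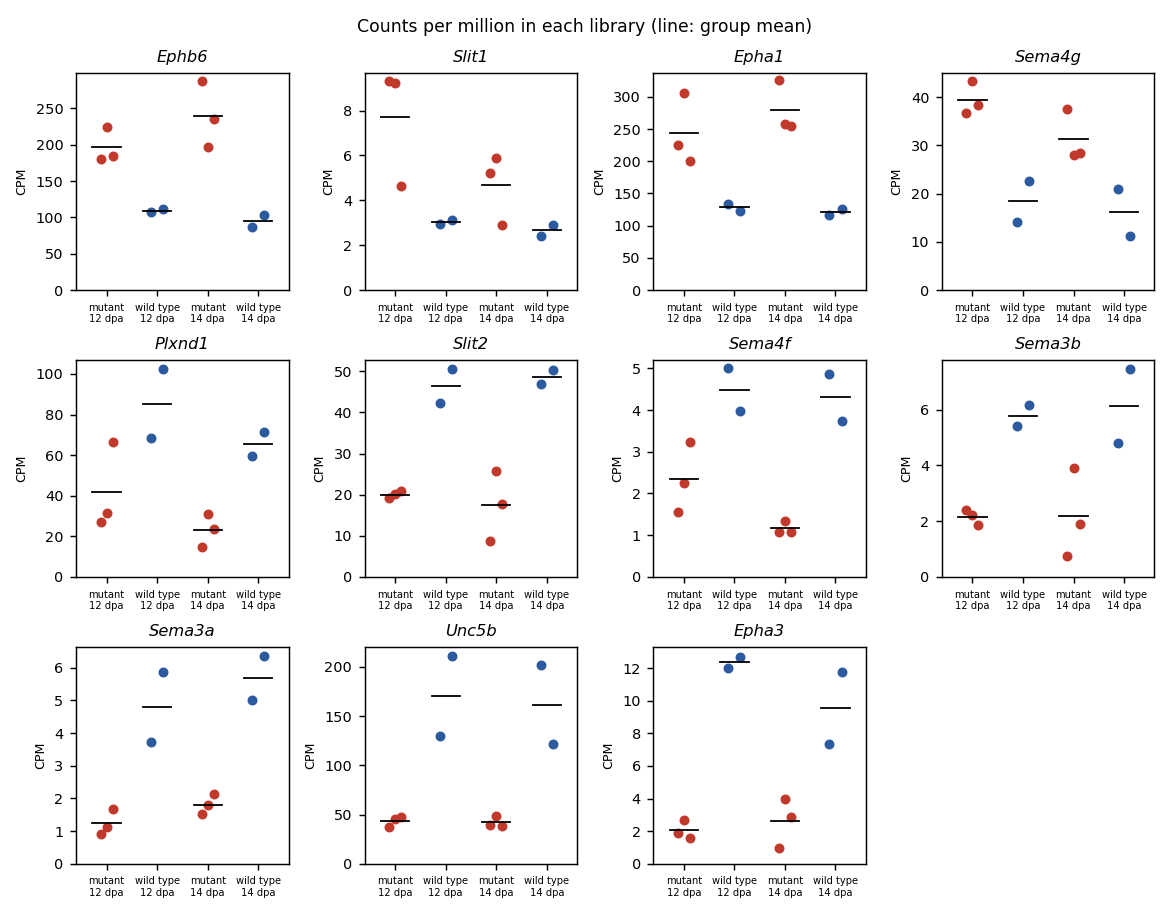
CPM in each library (1 point each, black line the group mean, axes from 0) for the 11 guidance genes called over both days with at least a 2-fold change and a mean of at least 1 TPM in a group, mutants in red and wild type in blue. The upper row from Ephb6 to Sema4g is higher in mutants and the 7 genes from Plxnd1 to Epha3 are lower, and Slit1 is the gene whose groups overlap, at 14 dpa.

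The RefSeq sequence upstream of the start is shown for the strongest called genes of 3 kinds, a low-level receptor that fell (Epha5), the abundant receptor that fell (Unc5b) and the abundant receptor that rose (Ephb6), because Lmx1b encodes a homeodomain protein and such proteins bind AT-rich sites. Each line gives the 250 bases before the annotated start, 5′ to 3′ on the gene's strand, and capitals mark TAATTA, a homeodomain core that reads the same on both strands. The intervals on build GRCm38.p6 are chr5:84417383-84417632 (minus strand) for Epha5, chr10:60831582-60831831 (minus strand) for Unc5b and chr6:41605261-41605510 (plus strand) for Ephb6.
Epha5: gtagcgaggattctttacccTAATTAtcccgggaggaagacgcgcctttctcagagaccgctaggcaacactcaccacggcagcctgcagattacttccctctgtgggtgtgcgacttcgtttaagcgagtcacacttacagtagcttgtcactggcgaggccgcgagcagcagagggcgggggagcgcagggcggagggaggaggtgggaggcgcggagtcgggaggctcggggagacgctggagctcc
Unc5b: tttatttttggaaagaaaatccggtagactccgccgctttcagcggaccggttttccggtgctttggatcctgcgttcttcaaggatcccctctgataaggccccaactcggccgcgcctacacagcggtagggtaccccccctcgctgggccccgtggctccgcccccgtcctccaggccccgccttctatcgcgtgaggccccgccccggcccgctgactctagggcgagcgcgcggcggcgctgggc
Ephb6: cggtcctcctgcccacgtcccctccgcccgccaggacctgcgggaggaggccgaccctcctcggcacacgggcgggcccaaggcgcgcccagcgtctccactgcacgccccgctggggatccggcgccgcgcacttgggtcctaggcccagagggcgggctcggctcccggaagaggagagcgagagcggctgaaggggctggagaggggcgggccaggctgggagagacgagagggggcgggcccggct

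The motif TAATTA occurred in Epha5 and in neither Unc5b nor Ephb6 within these windows. RefSeq windows of 300 bases around the start were matched by symbol for 53 of the 63 members, 69 windows in all. Of these, 3 held the motif, those of Efna1 (not called), Epha5 (lower) and Robo3 (not tested). That is 4.35% of the members' windows, against 5.29% of the 32851 windows of all genes. The windows of guidance genes were GC-rich, with a median of 64% against 52.7% over all windows. A match is a description of letters, and these windows say nothing of the distant enhancers or of binding.

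Each day was then compared alone, to see whether the differences stood at both stages. At 12 dpa 6 members rose and 11 fell, where 16.5% of all genes were called (7.18% higher, 9.34% lower). At 14 dpa 11 rose and 17 fell, where 33.3% were called (16.1% higher, 17.2% lower). Of the members, 35 did not overlap between genotypes at 12 dpa (15 higher, 20 lower) and 39 at 14 dpa (14 higher, 25 lower), where 51.7% and 62.4% of all genes did not. The calls at 12 dpa were Epha1, Epha4, Ephb6, Plxna2, Sema4g and Slit1 higher, and Epha3, Epha5, Ntn5, Sema3a, Sema6a, Sema6c, Sema6d, Sema7a, Slit2, Unc5b and Unc5c lower. The count depended on single libraries. Without wild type 12 dpa replicate 2, 0 rose and 3 fell at 12 dpa, and without wild type 12 dpa replicate 1, 1 rose and 5 fell. Leaving out mutant 12 dpa replicate 1, 2 or 3 gave 4 and 5, 3 and 7, and 4 and 8 higher and lower calls, and leaving out mutant 14 dpa replicate 3 gave 6 and 7.

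At 14 dpa the added calls were Efna3, Epha2, Ephb3, Sema4a, Sema4b and Sema4d higher, and Ntn4, Plxnd1, Sema3d, Sema3g, Sema4f, Sema5b and Sema6b lower, while Slit1 and Sema6c did not pass there. Without wild type 14 dpa replicate 1, 4 rose and 4 fell at 14 dpa. Without wild type 14 dpa replicate 2 it was 6 and 7, without mutant 14 dpa replicate 1 it was 7 and 13, and without mutant 14 dpa replicate 3 it was 8 and 8. Without both libraries that stand apart, 3 rose and 6 fell. Unc5b passed on each day in every alternative run, the conflicting tag apart, with log2 fold changes of -1.99 (SE 0.25, adjusted p = 0.00197) on the earlier and -1.93 (SE 0.25, adjusted p = 0.00168) on the later day. A gene past the threshold on a single day is not shown to differ between days.

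Whether the genotype effect itself changed with the day was tested as an interaction. By edgeR 0 of 58 members and 0% of all genes passed, with 5 members and 1763 genes at an unadjusted p under 0.05. Over all genes DESeq2 called 48 here. The smallest p among members belonged to Epha2, with a log2 difference of 0.56 between 14 and 12 dpa (SE 0.15, adjusted p = 0.544). Efnb1, Ephb3 and Sema4b had differences of 0.57, 0.75 and 0.47, none past the threshold. In wild type, 14 against 12 dpa gave 0 members and 0% of all genes by edgeR, with 3 members at an unadjusted p under 0.05, and DESeq2 also called 0 members.

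Within mutants, 14 against 12 dpa gave 0 members by edgeR (0.0346% of all genes were called, 0.0148% higher and 0.0198% lower) with 13 at an unadjusted p under 0.05. By DESeq2 Sema4b, Epha2 and Sema5a were higher and Ephb2, Sema4f, Plxna1 and Plxnb1 lower at 14 dpa. Limma on log2(TPM + 1) called Plxna2, Ephb2 and Plxnb1 lower. The edgeR log2 changes were 0.50 for Sema4b (adjusted p = 0.116) and -0.98 for Ephb2 (adjusted p = 0.126). Ephb2, which had 5.74, 10.1 and 5.86 CPM in mutants at 14 dpa and 17.3, 11.2 and 14.3 CPM at 12 dpa, was lower at 14 dpa in wild type too, with 7.29 and 8.31 CPM at 14 dpa and 10.9 and 16.9 CPM at 12 dpa.

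**Figure D4:**
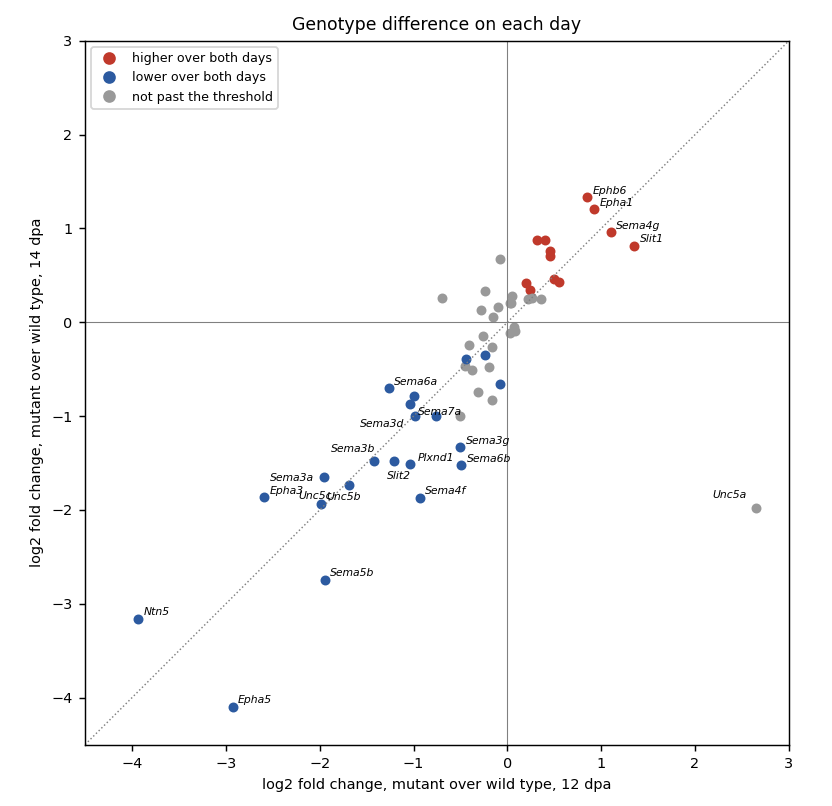
Log2 fold change of mutant over wild type at 12 dpa (horizontal) and at 14 dpa (vertical) for the 58 tested guidance genes, coloured by their call over both days; the dotted line marks equal change. Called genes lie at the lower left and the upper right, Epha5 lies lowest at 14 dpa (-4.10), and Unc5a, at few counts and not called, lies far from the other genes at the lower right.

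Genes that work beside these families, such as co-receptors and downstream effectors, were listed apart, and of 59 on the list 57 were matched and 56 tested. Of these 15 rose, 20 fell and 21 did not pass, with a median log2 fold change of -0.07, against the 43.7% of all genes called. The neuropilins both fell. Nrp1, the Sema3a co-receptor, had 3.2, 3.76 and 4.12 TPM in mutants and 7.8 and 9.89 TPM in wild type at 12 dpa, and 1.97, 3.12 and 2.85 TPM in mutants and 6.14 and 7.03 TPM in wild type at 14 dpa, without overlap. Its log2 fold change was -1.57 (adjusted p = 7.1e-05). Nrp2, the Sema3f co-receptor, changed by -1.09 (adjusted p = 0.0296), though mutant 12 dpa replicate 3 had 21.95 TPM, above both wild type libraries of its day. Robo4, an endothelial Robo and itself an endothelial marker, fell with a log2 fold change of -2.05 (adjusted p = 0.000133).

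Effectors below plexins and Robos moved in both directions. Among those that rose were Arhgef12, an exchange factor bound by B-class plexins, at 0.59 (adjusted p = 0.00291), and Gipc1 at 0.69 (adjusted p = 0.000728). Among those that fell, Fyn, a Src-family kinase downstream of Sema3a, changed by -1.31 (adjusted p = 0.000118), Dpysl2, the collapsin response mediator, by -1.02 (adjusted p = 0.00313), and Srgap1, a Slit-Robo GTPase-activating protein, by -1.03 (adjusted p = 0.00108) on the log2 scale. Itga1, a subunit of an integrin that binds Sema7a, changed by -1.68 (adjusted p = 0.000183), the netrin-binding Draxin by -1.36 (adjusted p = 0.00116) and the netrin-G gene Ntng1 by -1.58 (adjusted p = 0.0115). The adhesion molecule Nrcam changed by -3.23 (adjusted p = 0.00207), with 0.15, 0.36 and 0.56 TPM in mutants and 0.8 and 2.17 TPM in wild type at 12 dpa, and 0.35, 0.23 and 0.17 TPM in mutants and 0.44 and 4.88 TPM in wild type at 14 dpa. Its 2 wild type 14 dpa libraries thus lay far apart, and the lower one was near the highest mutant library of that day. Flrt1, of a membrane protein family that binds Unc5 receptors, rose by 1.47 (adjusted p = 0.00807) and Dpysl5 by 1.17 (adjusted p = 0.0441). Ntng1, Draxin and Dpysl5 were at or below 1.07 TPM in every library.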

How the data were processed

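Per the labels' protocols, total RNA came from column extraction and went into stranded Illumina libraries. Tools named in the submitters' processing notes are RSEM 1.3.0, STAR 2.7.8a and FastQC, with GRCm39 as the build. The deposited per-library files hold expected counts, not normalized, and TPM, scaled by gene length, for 55416 genes. The authors also deposited a TPM table of 21729 protein-coding genes, which equalled the library files. Among the nonzero expected counts 30.9% were not whole (25.9% in guidance genes), since reads that match several genes are divided, so values of near-identical family members are uncertain.

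Groups came from the titles. A conflicting genotype tag on mutant 14 dpa replicate 1 was set aside, and wild type 14 dpa replicates are numbered as in the titles. Libraries of a group differed beyond counting noise (chi-square 125.4 to 244.6 per degree of freedom). No label ties libraries to separate animals, so p-values reflect the spread among libraries alone, and that spread can be technical.

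Expected counts were rounded and fitted with edgeR 4.0.16 (R 4.3.3), filterByExpr (minimum count 10), TMM factors of 0.845 to 1.13 and a robust quasi-likelihood test with all 10 libraries in 1 fit. P-values were adjusted by Benjamini-Hochberg over 20216 genes, with 0.05 as threshold. Every adjusted p without another tool's name is from this test. The common dispersion was 0.0767. CPM values use the scaled library sizes, and fold changes a prior count of 0.125. DESeq2 1.42.0 and limma 3.58.1 on log2(TPM + 1) were alternatives. Tested on simulated data with 200 changed genes (19648 tested), the contrast over both days recovered 65.3% at a log2 change of 1 and 83.3% at 2, with 11 false calls, and the 12 dpa contrast 37.9% and 62.5%, with 8. Far fewer genes changed there than were called over both days in the data (8843 of 20216). The adjustment depends on that share, so these rates do not give the sensitivity of the tests above.

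Members and lists were chosen with earlier results of these data known. Values in every library were to be given for members called over both days with at least a 2-fold change and 1 TPM in a group, for the most abundant member of each family, and for members called between days. Values of other members were added after they were seen. Companion genes were named when called with at least a 2-fold change, up to 12, and Arhgef12 and Gipc1 were added after their values were seen. Exon overlaps are from GENCODE M21 and promoters from RefSeq on GRCm38.p6. The GRCm39 genome was not used here.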

Additional observations from a re-analysis of the deposited data

Results flagged for a closer look

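Unc5a, a netrin receptor at few counts, had libraries apart in opposite directions on the 2 days. The 12 dpa mutants held 29, 5 and 24 rounded counts, against 1 and 4 for the wild type libraries, and the 14 dpa mutants held 3, 4 and 0, against 6 and 13 for the wild type libraries. The log2 difference between the genotype contrasts, 14 minus 12 dpa, was -4.62 (SE 1.43) and did not pass by edgeR (adjusted p = 0.544). Its exons share 34 bases with Hk3 on the opposite strand, whose part in the values was not tested. Groups of 2 and 3 libraries are too small for a test of single outlying libraries.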

How the results depend on the processing

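Calls over both days held their direction in all alternatives run. The conflicting tag, with that library in wild type, left 0 guidance genes and 0 genes in all over both days, at 12 dpa and at 14 dpa, and 2 genes between days in mutants. Leaving out single libraries gave 10 to 13 higher and 16 to 21 lower guidance genes over both days, 0 to 6 and 3 to 13 at 12 dpa, and 4 to 11 and 4 to 19 at 14 dpa, and 0 in each contrast of days. All genes called ranged from 6769 to 8797, 769 to 3947 and 2548 to 6517, and from 1 to 24 between days in mutants, 0 to 4 in wild type and 0 to 3 for the difference of days. Limma on log2(TPM + 1) and on log2(TPM + 0.1) gave 17 higher and 11 lower guidance genes over both days, 10 and 4 at 12 dpa, and 4 and 5 lower at 14 dpa, with all-gene medians of 0.34 and 0.41. Without a filter on TPM it was 4 lower at 12 dpa, 7 higher and 6 lower at 14 dpa (3535 genes in all). With the replicate block 10 rose and 19 fell over both days, 5 fell at 12 dpa (1927 genes in all), and 1 gene passed between days in mutants. Of the called members, Efna4, Ntn4, Plxnb1, Robo2 and Sema4d did not pass with it. Replicate numbers did not pair libraries (correlations of -0.121 to 0.0862). With sex as a covariate 7 fell at 12 dpa and 7 rose at 14 dpa, and with only the groups compared 7 rose at 14 dpa. Without both 14 dpa libraries that stand apart, chosen after seeing the data, 3 rose and 6 fell at 14 dpa (1520 genes in all), and 1 gene passed between days in wild type. Between days in mutants, DESeq2 called 3 higher and 4 lower guidance genes (1505 genes in all), limma on TPM 3 lower with either pseudocount (898 and 941 genes), no filter on counts 45 genes, the stricter filter 54 and sex as a covariate 18. In wild type DESeq2 called 77 genes, limma 2, 3 and, without a filter, 41, only the groups compared 8 and sex as a covariate 2. For the difference of days no filter gave 1 gene, DESeq2 48, and limma 2 and, without a filter, 20. The log2 fold change of Efnb1 turned to -0.0198 with the stricter filter, to -0.0538 with the tag and to -0.00168 without both libraries, and ranged from -0.0246 (without mutant 12 dpa replicate 2) to 0.113 over the libraries left out. That of Sema5a turned to 0.069 (log2(TPM + 1), with or without a filter) and 0.0756 (log2(TPM + 0.1)), and ranged from -0.159 to 0.0245 (without wild type 12 dpa replicate 2). The cause of these moves was not tested. Depth limits members under 1 CPM, such as Ntn5, Sema5b and Unc5a.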

Other observations

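Set against the summed level of the fibroblast and blastema mesenchyme markers, the genes that fell in mutants did not all behave alike. For each 100 TPM of that list, Slit2 stood at 0.277 to 0.507 TPM in mutants and 0.153 to 0.310 TPM in wild type, higher in mutants at 12 dpa and overlapping at 14 dpa. Sema3b, at 0.0745 to 0.158 TPM in mutants and 0.0422 to 0.0927 TPM in wild type, and Sema3d, at 0.180 to 0.370 TPM in mutants and 0.0877 to 0.163 TPM in wild type, were higher in mutants on each day. Sema3a overlapped on both days, at 0.0237 to 0.0993 TPM in mutants and 0.0205 to 0.0418 TPM in wild type. Epha5, at up to 0.00777 TPM in mutants and from 0.00808 TPM in wild type, and Ntn5, at up to 0.00517 TPM in mutants and from 0.00801 TPM in wild type, stayed lower in mutants on each day. For Epha5 at 12 dpa the gap is within the rounding of the TPM values, so the order there is not settled. These ratios carry no test, and both terms come from the same libraries.

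Scaled to the keratinocyte markers in the same way, several genes that rose in mutants were not higher. Efna4 and Sema4d were lower in mutants on both days, and Sema4b was lower at 12 dpa and overlapped at 14 dpa.

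Of the 25 members not called over both days, 10 passed in at least 1 alternative. They were Efna1, Efna5, Ephb3, Ntn1, Plxna1, Plxna3, Plxna4, Sema3c, Sema3f and Slit3.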
